A study of Mus musculus with 24 samples.

Results

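Transcripts of 10 pericyte marker genes were followed in RNA from mouse brain cell fractions enriched for endothelial cells, in animals lacking Sox17 in the endothelium and in animals that kept it. The genes Pdgfrb, Rgs5, Kcnj8, Abcc9, Cspg4, Anpep, Vtn, Ndufa4l2, Higd1b and Atp13a5 were taken by name from count tables of 45468 genes. All 10 were found, and all 10 were among the 17159 genes tested, those that reached a mean count of 10 in 1 group or more. Pericytes are the contractile and supporting cells that sit in the basement membrane of capillaries, wrapped around the endothelial tube. In the developing brain, endothelial cells release the growth factor PDGF-B, and pericytes carrying its receptor follow it along the new vessels and help to tighten the blood-brain barrier. The pericytes of brain capillaries are known for an ATP-sensitive potassium channel, for the brake on G protein signalling made by Rgs5, and for surface enzymes and proteoglycans that are used to sort them.

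The series compared Sox17iECKO mice (KO), which carried Sox17 flox/flox and the tamoxifen-activated recombinase Cdh5(PAC)-Cre-ERT2, with mice that carried Sox17 flox/flox without the recombinase (wt), at E15.5, P5, P9 and in adults, in 3 biological replicates per group and 24 libraries. The Cdh5 promoter drives the recombinase in endothelial cells, not in pericytes. Both genotypes received tamoxifen: dams of the E15.5 embryos 1 mg on days 11.5 and 13.5 after mating, P5 and P9 pups 100 µg at P1, and adults 4 injections of 1.5 mg from 6 weeks of age, with 1 week before harvest. Leukocytes were first removed from the cell suspension through CD45, and CD31 beads then captured the cells that were sequenced. CD31 is carried by endothelial cells and not by pericytes. E15.5 and P5 brains were dissociated with a different kit from P9 and adult brains.

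Libraries held 12301779 to 19830600 counts, and every level here is in CPM, a gene's count scaled to the library's total after TMM normalization. The members had between 66 and 38343 counts in a library, so none was near the limit of detection. Sox17 was lower in KO than in wt libraries at each stage, with log2 differences of -3.30 at E15.5, -4.05 at P5, -3.82 at P9 and -2.49 in adults. The sum of 16 endothelial identity genes was 5904 to 7105 CPM in KO and 5571 to 6673 CPM in wt at E15.5, 20013 to 22028 CPM in KO and 20052 to 22415 CPM in wt at P5, 26296 to 31666 CPM in KO and 21854 to 22409.9 CPM in wt at P9, and 14188 to 16123 CPM in KO and 14960.1 to 16106 CPM in wt adults. In adults 7 oligodendrocyte genes summed to more than these 16, at 17191 to 25407 CPM in KO and 21426 to 25944 CPM in wt, so the adult fraction was not purely endothelial. Libraries of 2 stages stood apart in the pericyte markers. At E15.5 the library numbered 3 of each genotype had the lowest level of all 10 markers in its group, and at P9 KO library 1 had the lowest level of all 10.

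**Figure D1:**
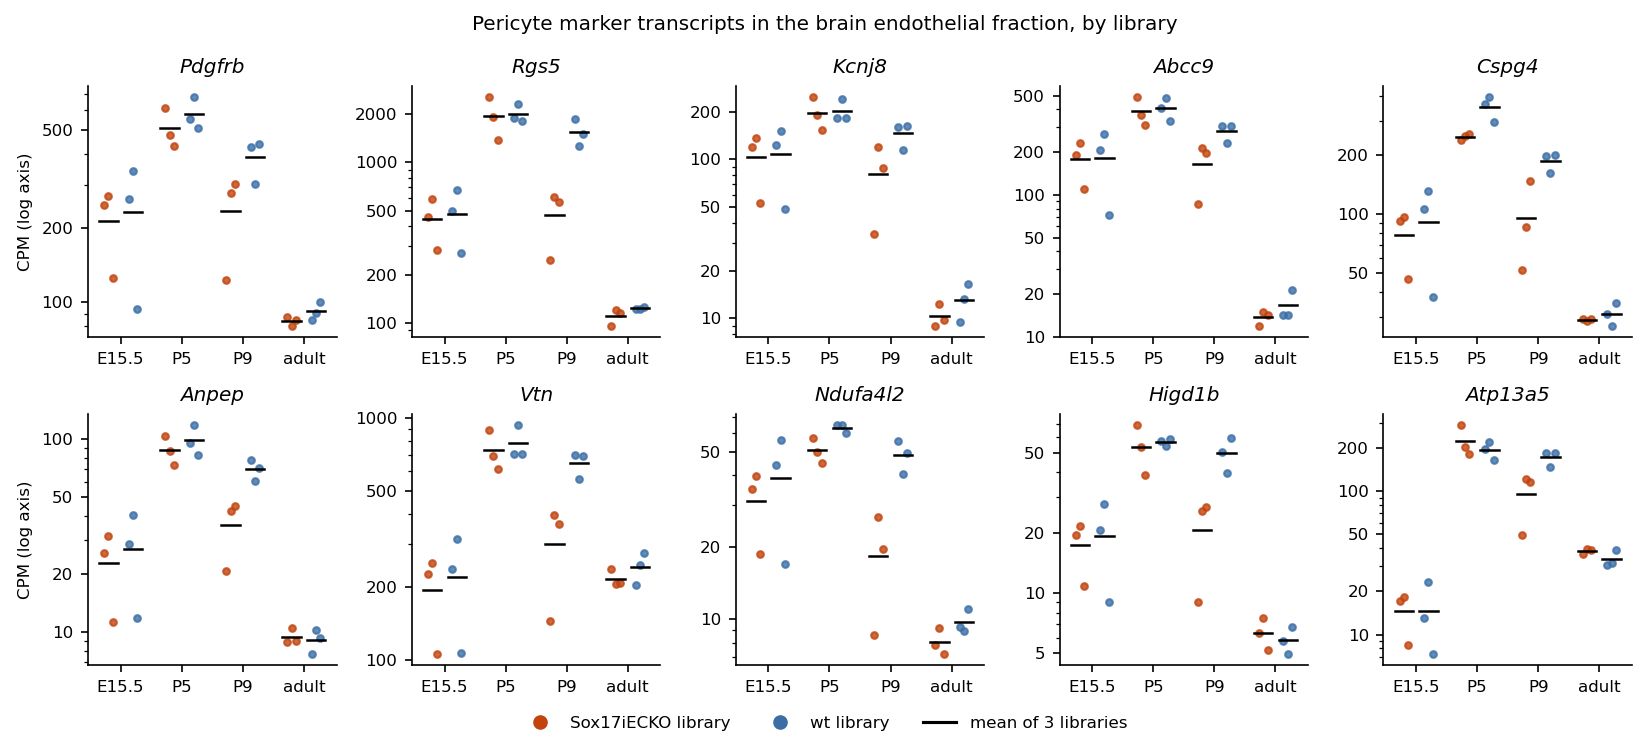
Level of each of the 10 pericyte markers in CPM (logarithmic axis) in each library, with KO libraries left of wt libraries at each stage and the mean of 3 libraries as a bar. At P9 the KO libraries of 9 markers lie below all wt libraries, Kcnj8 being the exception, and in adults the levels of all 10 lie below those of wt libraries at P9.

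At P9 the pericyte markers were lower in KO than in wt fractions. Of the 10, 7 fell and 0 rose at an adjusted p under 0.05 (called below), beside 14.6% of all genes tested that fell, 13.5% that rose and 28.0% that changed in either direction. Rgs5, Ndufa4l2, Higd1b, Vtn, Cspg4, Anpep and Atp13a5 passed, and Pdgfrb, Kcnj8 and Abcc9 did not. The median log2 difference of the 10 was -0.96, and that of all genes tested was 0.02. In 9 of the 10 each KO library lay below each wt library, an arrangement found in 21.7% of genes tested. In bulk RNA, fewer pericytes in the fraction and less of these RNAs per pericyte cannot be told apart.

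Rgs5, a brake on G protein signalling in pericytes and smooth muscle, showed the largest difference of the 10. Its level was 246, 610.4 and 564 CPM in KO libraries 1, 2 and 3, against 1850.4, 1273 and 1494 CPM in wt libraries 1, 2 and 3. The highest KO library thus stood below the lowest wt library. The mean was 473 ± 199 CPM in KO and 1539 ± 291 CPM in wt (SD, n = 3 each), or 30.7% of the wt level. The log2 difference was -1.70 ± 0.31 (SE; adjusted p 0.00020).

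Ndufa4l2, a small mitochondrial protein whose gene is induced by low oxygen in other cells, and Higd1b, of the hypoxia-inducible domain family, followed. Ndufa4l2 had 8.58, 26.6 and 19.7 CPM in KO and 55.5, 40.5 and 49.7 CPM in wt libraries, with a log2 difference of -1.39 ± 0.33 (adjusted p 0.0029). Higd1b had 9.0, 25.7 and 26.9 CPM in KO and 50.9, 39.9 and 59.1 CPM in wt libraries, with a log2 difference of -1.26 ± 0.34 (adjusted p 0.0068). The groups of neither gene overlapped. Rgs5, Ndufa4l2 and Higd1b were the 3 members that stayed called under all 13 other settings tried at this stage, each library left out in turn included. The 3' part of Ndufa4l2 overlaps Shmt2 on the other strand, and the libraries were strand-specific with counts of 1 strand.

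Vtn encodes vitronectin, an adhesive protein that brain pericytes secrete into the vessel matrix. Its level was 145, 394 and 362 CPM in KO and 704, 557 and 691 CPM in wt libraries, and the log2 difference was -1.11 ± 0.33 (adjusted p 0.014). Of the markers used to sort pericytes, Cspg4, the proteoglycan NG2, had 51.7, 85.9 and 148 CPM in KO and 198, 162 and 201 CPM in wt libraries (log2 -0.97 ± 0.33, adjusted p 0.030). Anpep, the membrane aminopeptidase CD13, had 20.6, 42.5 and 44.8 CPM in KO and 77.6, 60.8 and 70.7 CPM in wt libraries (log2 -0.94 ± 0.33, adjusted p 0.035). All 3 genes had KO libraries wholly below the wt libraries. Atp13a5, a P-type transport ATPase that among brain cells is a marker of pericytes, had 49.3, 122 and 116 CPM in KO and 184, 149 and 185 CPM in wt libraries (log2 -0.84 ± 0.30, adjusted p 0.041), again without overlap. Its annotated span holds the pseudogene Gm15752 on the same strand.

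Pdgfrb, the receptor through which PDGF-B recruits pericytes, did not pass. It had 123, 276 and 303 CPM in KO and 425, 303 and 439 CPM in wt libraries, with a log2 difference of -0.73 ± 0.33 (adjusted p 0.11). The highest KO library lay just below the lowest wt library, so the groups did not overlap but nearly met. Kcnj8 and Abcc9 encode the pore and the regulatory subunit of the ATP-sensitive potassium channel through which metabolic state sets the membrane potential of pericytes. Kcnj8 had 34.2, 119 and 88.6 CPM in KO and 160.1, 115 and 162 CPM in wt libraries (log2 -0.85 ± 0.37, adjusted p 0.094), where KO library 2 exceeded wt library 2. Abcc9 had 86.8, 215 and 196 CPM in KO and 307, 233 and 307 CPM in wt libraries (log2 -0.77 ± 0.34, adjusted p 0.10), without overlap. An antisense gene, 5330439B14Rik, overlaps Abcc9.

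KO library 1 set much of the spread at P9. It held a median of 0.517 of the KO mean over the 10 markers (0.424 to 0.573), while its endothelial identity sum of 28076 CPM lay between those of the other KO libraries. It also had the lowest total of the P9 libraries, 13339133 counts. Its 20147 genes with a count were the fewest of the 24 libraries. Without it 3 of the 10 markers were called, without wt library 1 4, and without wt library 3 4. The DESeq2 test also called 4. All 10 differences stayed negative in all 13 settings, 10 being called when the libraries were scaled to the endothelial identity genes, a scaling that moved the median of all genes tested by -0.34 (the median of the 10 was then -1.32 and that of all genes -0.33).

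**Figure D2:**
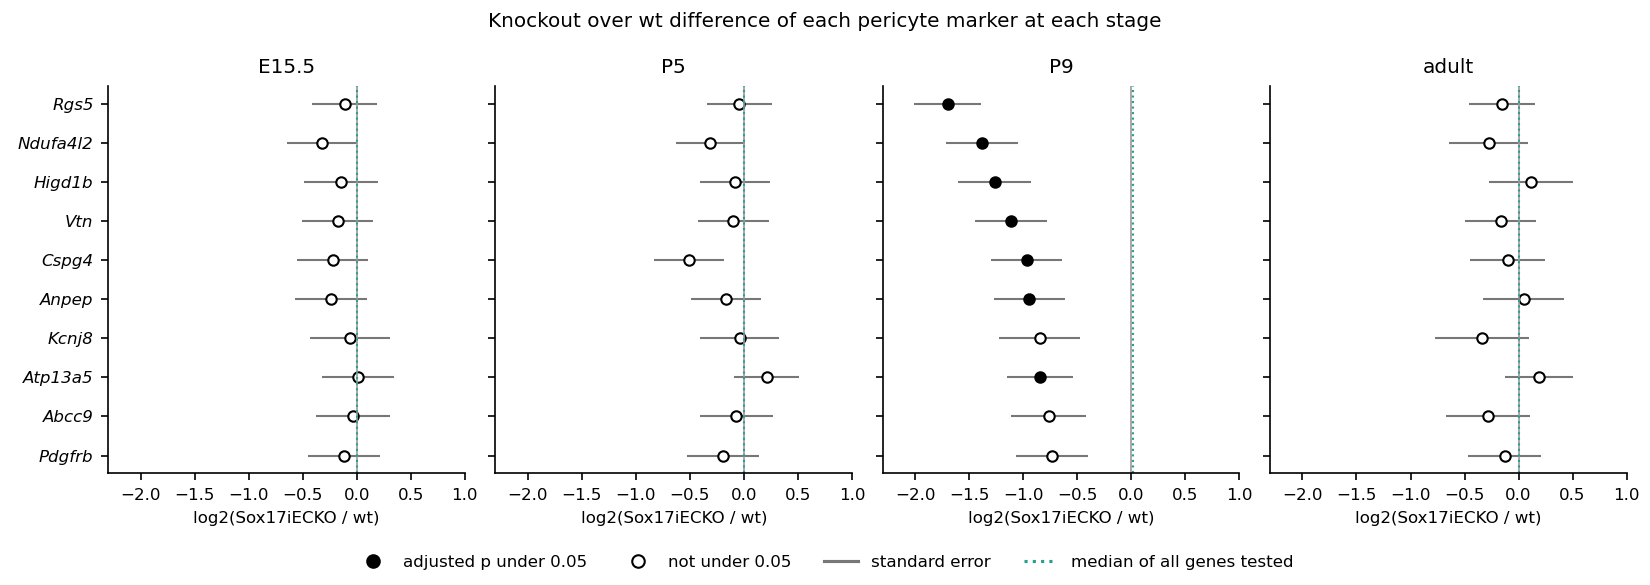
Log2 difference of KO over wt for each pericyte marker (points, with the standard error as a line) at each of the 4 stages, filled where the adjusted p was under 0.05, with the median of all genes tested dotted. All 10 points lie left of 0 at P9, from -1.70 for Rgs5 to -0.73 for Pdgfrb, and no point is filled at the other stages.

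At the other stages no pericyte marker was called between KO and wt in the edgeR test over all libraries. At E15.5 0 of the 10 passed (0.548% of genes tested did), at P5 0 (0.530%) and in adults 0 (0.0874%), in the edgeR quasi-likelihood test. The unadjusted p was under 0.05 for 0 of the 10 at each of these stages, and DESeq2 and limma also called 0. At P5 1 member, Cspg4, was called with no filter on low counts (adjusted p 0.0042) and with the P5 libraries alone (0.033). Differences ran from -0.32 (Ndufa4l2) to 0.01 (Atp13a5) at E15.5, from -0.51 (Cspg4) to 0.21 (Atp13a5) at P5 and from -0.34 (Kcnj8) to 0.19 (Atp13a5) in adults, on the log2 scale. Their standard errors were 0.30 to 0.43.

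Rgs5 illustrates the contrast between stages. It had 457, 589.8 and 284 CPM in KO and 495, 670.2 and 274 CPM in wt libraries at E15.5, and 2538, 1922 and 1381 CPM in KO and 1885, 2317 and 1812 CPM in wt libraries at P5. In adults it had 96.1, 121 and 115 CPM in KO and 122, 123 and 125 CPM in wt libraries. Groups overlapped at E15.5 and P5, and in adults all KO libraries were a little below the wt libraries (log2 -0.15 ± 0.31, adjusted p 1). Rgs5 was the 1 member of the 10 in adults with KO libraries wholly lower, beside 5.79% of genes tested. At P5 there were 2, Cspg4 with 239.9, 249.8 and 256 CPM in KO and 368, 395 and 297 CPM in wt libraries, and Ndufa4l2 with 57.1, 50.2 and 45 CPM in KO and 64.7, 64.6 and 59.8 CPM in wt libraries, beside 7.22% of genes tested that were lower in KO in this way. At E15.5 there were 0 in either direction, beside 8.35%.

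Whether the KO effect differed between stages was tested directly, and Rgs5 was the 1 marker of 10 that passed (13.5% of genes tested did; adjusted p 0.019). Its KO effect at P9 was lower than at E15.5 by a log2 difference of -1.59 ± 0.43 (adjusted p 0.013), than at P5 by -1.66 ± 0.43 (0.010) and than in adults by -1.55 ± 0.43 (0.018). It was the 1 member called in each of these 3 contrasts, in which 15.8%, 15.7% and 13.2% of genes tested were called in the same order, and 8.65%, 8.44% and 6.72% as lower. The test over all stages lost the call without P9 wt library 1 or P9 KO library 1, with 0 members called in each case and adjusted p up to 0.076 for Rgs5. Leaving only the compared libraries in the fit ended the call against E15.5 (adjusted p 0.068), and leaving out P9 wt library 1 ended the call against adults (0.053). The other 9 markers were not called here, Higd1b having -1.38 ± 0.52 against adults (adjusted p 0.084). Other settings called more members in the test over all stages: 10 with no filter on low counts, 4 on the endothelial scale and 3 with a replicate block. In these contrasts age cannot be told apart from the tamoxifen schedule or the time between tamoxifen and harvest. Against E15.5 and P5 it cannot be told apart from the dissociation kit either. P5 and P9 pups both received tamoxifen at P1.

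Averaged over the 4 stages, Ndufa4l2 (log2 -0.57 ± 0.17, adjusted p 0.033) and Rgs5 (-0.50 ± 0.15, adjusted p 0.041) were lower in KO, 2 of 10 where 8.67% of genes tested were called and 3.87% were lower. Leaving out single libraries gave 0 to 4 called members, Ndufa4l2 being called in 13 and Rgs5 in 7 of the 24 cases, and robust limma-trend gave 0. Ndufa4l2 was below 0 on the log2 scale at each of the 4 stages, as were Pdgfrb, Rgs5, Kcnj8, Abcc9, Cspg4 and Vtn, though only the P9 values of Rgs5, Ndufa4l2, Cspg4 and Vtn among these passed at a single stage.

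Set against the endothelial genes of the same libraries, the pericyte markers made up a smaller part of the P9 KO fraction. Their summed level was 2.76, 6.06 and 7.11% of the endothelial identity sum in KO libraries 1, 2 and 3, and 18.2, 13.1 and 16.7% in wt libraries. Mean values were 5.31 ± 2.27% in KO and 16 ± 2.65% in wt at P9 (SD, n = 3 each). At E15.5 they were 20.5 ± 7.59% in KO and 22.9 ± 10.5% in wt, at P5 21.1 ± 5.88% in KO and 22.7 ± 1.77% in wt, and in adults 3.46 ± 0.196% in KO and 3.73 ± 0.533% in wt. P9 was the stage at which the genotypes did not overlap. Rgs5 and Vtn weighed most in the marker sum at P9. The mean sum was 1520 CPM in KO, with 473 CPM of Rgs5 and 301 CPM of Vtn. In wt it was 3535 CPM, with 1539 CPM of Rgs5 and 651 CPM of Vtn. The endothelial sum itself was 28679 ± 2735 CPM in KO and 22089 ± 288 CPM in wt at P9, and 8 of its 16 genes rose and 2 fell in KO (4 to 10 higher and 1 to 3 lower over the 13 other settings). Pecam1, the CD31 used for capture, had 1529.8, 1467 and 1301 CPM in KO and 1293, 1314 and 1274 CPM in wt libraries (log2 0.15 ± 0.11, adjusted p 0.33), and Cdh5, an endothelial cadherin, 1196, 1109.9 and 1159 CPM in KO and 1034, 1022 and 1010.0 CPM in wt libraries (log2 0.18 ± 0.10, adjusted p 0.19).

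**Figure D3:**
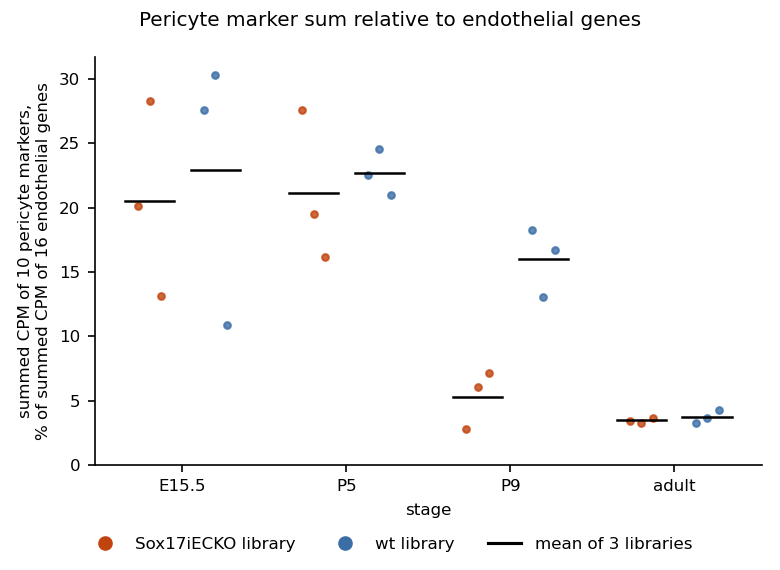
Summed CPM of the 10 pericyte markers as a percentage of the summed CPM of 16 endothelial identity genes in each library, with KO libraries left of wt libraries and the mean of 3 libraries as a bar. KO libraries at P9 lie between 2.76% and 7.11%, below the wt libraries at 13.1% to 18.2%.

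The proportions among the markers at P9 were described by dividing each by Pdgfrb in the same library, a scale chosen after seeing the data. Pdgfrb had the smallest P9 difference of the 10, so all 9 ratios of the KO mean to the wt mean lay below 1 by the choice of divisor, between 0.507 for Rgs5 and 0.971 for Abcc9, and only their sizes relative to each other are described here. Rgs5 had 1.99, 2.21 and 1.86 counts per Pdgfrb count in KO libraries at P9 and 4.35, 4.2 and 3.41 in wt libraries. It therefore stood 0.507 times as high, relative to Pdgfrb, in KO as in wt, and KO library 1 lay with the other KO libraries on this scale. Ndufa4l2 (0.0771 ± 0.0169 in KO and 0.126 ± 0.011 in wt), Higd1b (0.085 ± 0.0106 in KO and 0.129 ± 0.00797 in wt) and Vtn (1.27 ± 0.14 in KO and 1.69 ± 0.134 in wt) were also without overlap. Kcnj8, Abcc9, Cspg4, Anpep and Atp13a5 overlapped, Abcc9 with 0.71 ± 0.0652 in KO and 0.731 ± 0.0348 in wt. The exact permutation test of 3 against 3 libraries cannot go below p = 0.1, which is the value these 4 genes reached, and over the 72 such comparisons made the adjusted p was 0.18, so no difference in proportion passed.

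At the other stages the genotypes did not overlap in 5 of these ratios, and none passed either. The share of all genes tested that would not overlap on this scale was not computed at any stage, so these counts have no background. Atp13a5 was higher per Pdgfrb count in KO at P5 (0.471, 0.429 and 0.426 in KO and 0.357, 0.328 and 0.327 in wt) and in adults (0.42, 0.495 and 0.46 in KO and 0.36, 0.35 and 0.387 in wt), without overlap. Ndufa4l2 at E15.5 had 0.142, 0.147 and 0.15 per Pdgfrb count in KO and 0.167, 0.166 and 0.182 in wt. Cspg4 at E15.5 had 0.368 ± 0.00843 in KO and 0.398 ± 0.00947 in wt, and Vtn at P5 1.44 ± 0.0121 in KO and 1.35 ± 0.0553 in wt. The exact permutation p was 0.1 for each, the smallest possible, and 0.18 when adjusted.

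**Figure D4:**
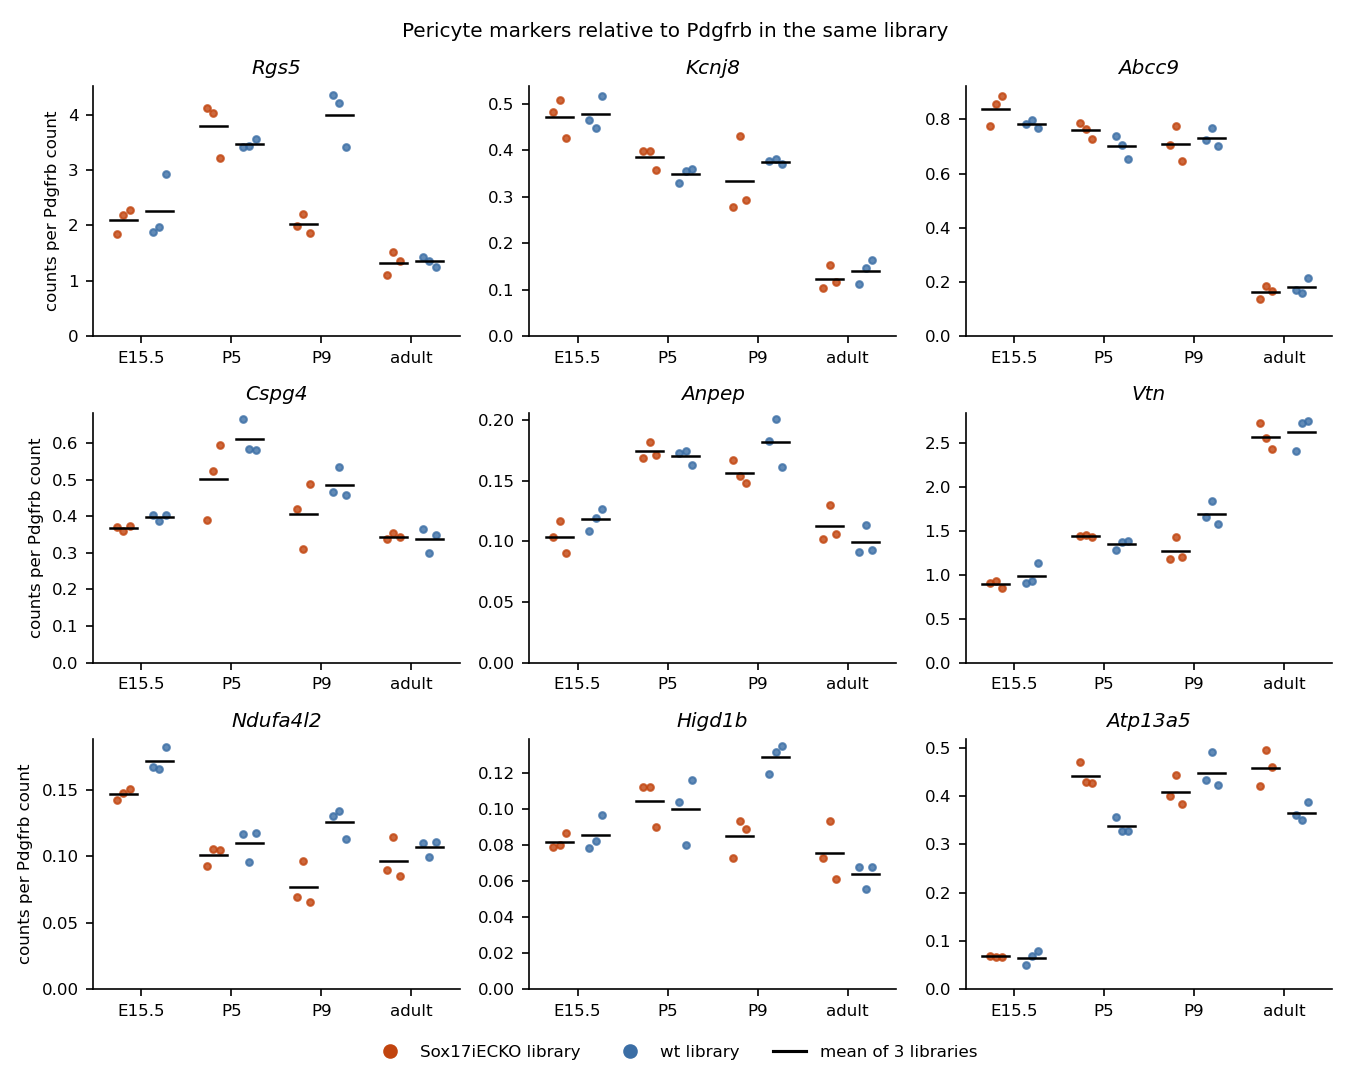
Counts of 9 pericyte markers per Pdgfrb count in the same library (linear axes from 0), with KO libraries left of wt libraries and the mean of 3 libraries as a bar. Rgs5 stands at 2.02 in KO and 3.99 in wt at P9, Abcc9 and Kcnj8 are lowest in adults, and Atp13a5 is lowest at E15.5.

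Per length, the order of the markers in wt fractions changed with age. At E15.5 Vtn (108 ± 51.7 CPM per kb, SD, n = 3) and Rgs5 (106 ± 43.6) led, and neighbours in the order all overlapped. Rgs5 (339 ± 64.1) and Vtn (321 ± 40.1) led at P9, overlapping with each other and not with Pdgfrb (71 ± 13.6), the next, which overlapped with Kcnj8 (66.7 ± 12.1). In P9 KO libraries Vtn (148 ± 66.9) stood before Rgs5 (104 ± 43.7), and all neighbours overlapped. In wt adults Vtn (119.5 ± 17.9) stood alone, above Rgs5 (27.1 ± 0.389) without overlap, and Abcc9 (2.21 ± 0.544) came last, overlapping with Anpep (2.35 ± 0.329).

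In wt fractions the pericyte markers were higher after birth than at E15.5 and far lower in adults than at P9. Between P5 and E15.5, 9 of the 10 were higher at P5 (36.2% of genes tested were higher and 66.6% changed), all but Ndufa4l2 (log2 0.69 ± 0.32, adjusted p 0.063). Between P9 and P5 0 of 10 were called in edgeR (5.12% of genes tested were), with 1 at an unadjusted p under 0.05 and 0 in DESeq2 and limma, and 6 when those 6 libraries alone were fitted. Between adults and P9 all 10 were lower in adults (30.3% of genes tested were lower and 61.1% changed), and on the endothelial scale, which moved the median of all genes by 0.49, all 10 were called. Stage is not separable from the dissociation kit, which changed between P5 and P9, or from the tamoxifen schedule, which changed between E15.5 and P5 and between P9 and adults. P5 and P9 pups both received tamoxifen at P1, so the time from tamoxifen to harvest also differed between P5 and P9.

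Atp13a5 was the marker that differed most between P5 and E15.5. It averaged 14.6 ± 8.01 CPM at E15.5, 195 ± 27.7 CPM at P5, 173 ± 20.9 CPM at P9 and 33.7 ± 4.54 CPM in adult wt libraries (SD, n = 3 each). The P5 level was 13.4 times that at E15.5 (log2 3.73 ± 0.34, adjusted p 2.4e-09), where Pdgfrb differed by a log2 value of 1.32 ± 0.34. Per Pdgfrb count Atp13a5 had 0.357, 0.328 and 0.327 at P5 and 0.0498, 0.0684 and 0.0788 at E15.5. It was also the 1 member higher in adults than at E15.5 (log2 1.2 ± 0.33, adjusted p 0.0026), while 8 were lower and Vtn had a log2 difference of 0.15 ± 0.33 (69.6% of genes tested were called). The sign of both values turned when libraries were scaled to the endothelial identity genes, to -0.10 for Atp13a5 and -1.18 for Vtn, a scaling that moved the median of all genes by -1.31.

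The difference between P5 and E15.5 depended on the scale. Endothelial identity genes were themselves higher at P5, and scaling to them moved the median of all genes by -1.70. On that scale the P5 over E15.5 values were -0.44 for Pdgfrb, -0.86 for Kcnj8, -0.61 for Abcc9, -1.06 for Ndufa4l2 and -0.18 for Higd1b, against 1.32, 0.91, 1.16, 0.69 and 1.57 on the TMM scale. There 3 of the 10 were called on the endothelial scale, counted in either direction, so they need not be calls kept from the TMM scale. Kcnj8 also lost its call in the DESeq2 test, without E15.5 wt library 3 and without P5 wt library 2 (adjusted p up to 0.18).

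Abcc9, Rgs5 and Kcnj8 showed the 3 largest differences between adults and P9. Kcnj8 averaged 108 ± 53.4 CPM at E15.5, 202 ± 33.3 CPM at P5, 146 ± 26.4 CPM at P9 and 13.1 ± 3.44 CPM in adult wt libraries. Abcc9 averaged 183 ± 101, 407 ± 72.6, 283 ± 42.9 and 16.7 ± 4.1 CPM at the same stages (SD, n = 3 each). The adult level of Abcc9 was 5.91% of that at P9 (log2 -4.07 ± 0.40, adjusted p 6.1e-09) that of Rgs5 8.0% (log2 -3.64 ± 0.34, adjusted p 2.3e-09) and that of Kcnj8 8.95% (log2 -3.46 ± 0.42, adjusted p 2.1e-07). Pdgfrb kept 23.6% (log2 -2.08 ± 0.35) and Vtn 37.3% (log2 -1.42 ± 0.33), the smallest difference of the 10.

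Relative to Pdgfrb in the same library, the channel genes and Vtn went opposite ways. Abcc9 had 0.168, 0.159 and 0.213 counts per Pdgfrb count in adult wt libraries and 0.723, 0.769 and 0.701 at P9. Kcnj8 had 0.113, 0.146 and 0.163 in adults and 0.377, 0.381 and 0.37 at P9, and Rgs5 1.43, 1.36 and 1.24 in adults and 4.35, 4.2 and 3.41 at P9. All 3 were lower in adults without overlap. Vtn had 2.41, 2.73 and 2.75 in adults and 1.65, 1.84 and 1.58 at P9, the 1 marker of the 9 that was higher in adults on this scale. KO adults had 0.164 ± 0.0242 for Abcc9, 0.124 ± 0.0256 for Kcnj8 and 2.57 ± 0.146 for Vtn, beside 0.18 ± 0.0289, 0.141 ± 0.0258 and 2.63 ± 0.192 in wt adults.

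The oligodendrocyte genes whose sum in adults exceeded that of the endothelial genes summed to 1044 to 1922 CPM in wt at P9. Cspg4 also marks oligodendrocyte precursors. Another marker of those cells, Olig1, was at 455, 509 and 629 CPM in KO adults and 519, 575 and 667 CPM in wt adults, and 29.9, 31.1 and 28.5 CPM in wt at P9, while Cspg4 was lower in adults than at P9 (log2 -2.59 ± 0.35). Pdgfra, a gene of these precursors and of fibroblasts, was lower in wt adults than in wt at P9 too (log2 -2.04 ± 0.27). The 7 oligodendrocyte precursor genes together summed to 1093 to 1376 CPM in wt adults and 340.2 to 393 CPM in wt at P9. The part of oligodendrocyte precursors in the adult values was not tested.

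The promoters of 4 members are shown because the channel genes are neighbours with large adult differences, Rgs5 had the largest KO difference at P9, and Vtn was the marker that was higher per Pdgfrb count in adults. Kcnj8 and Abcc9 lie on chromosome 6, both on the minus strand, with 16505 bases between the 5′ end of Kcnj8 and the 3′ end of Abcc9 in the mm10 coordinates of the tables. In those tables Kcnj8 spans chr6:142564939-142571356, Abcc9 chr6:142587862-142702274, Rgs5 chr1:169655501-169695813 and Vtn chr11:78499091-78502324, all protein-coding, and the RefSeq starts used for the promoters of Kcnj8 and Vtn lie at other bases than these ends. Each sequence runs from 250 bases before the transcription start to 50 bases after it, 5′ to 3′ on the strand of the gene, from RefSeq on GRCm38.p6. Kcnj8 is at chr6:142571565-142571864 (minus strand), Abcc9 at chr6:142702225-142702524 (minus strand), Rgs5 at chr1:169655251-169655550 (plus strand) and Vtn at chr11:78498870-78499169 (plus strand). Capitals mark TGGGAA or its reverse complement TTCCCA, the core bound by RBPJ, the DNA-binding partner of Notch receptors, which act in mural cells through Notch3.
Kcnj8: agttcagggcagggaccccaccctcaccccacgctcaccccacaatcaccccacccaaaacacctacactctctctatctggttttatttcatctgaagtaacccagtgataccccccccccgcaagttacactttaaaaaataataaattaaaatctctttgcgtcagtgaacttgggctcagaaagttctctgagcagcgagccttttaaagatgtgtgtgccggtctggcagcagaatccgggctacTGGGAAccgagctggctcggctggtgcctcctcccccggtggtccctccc
Abcc9: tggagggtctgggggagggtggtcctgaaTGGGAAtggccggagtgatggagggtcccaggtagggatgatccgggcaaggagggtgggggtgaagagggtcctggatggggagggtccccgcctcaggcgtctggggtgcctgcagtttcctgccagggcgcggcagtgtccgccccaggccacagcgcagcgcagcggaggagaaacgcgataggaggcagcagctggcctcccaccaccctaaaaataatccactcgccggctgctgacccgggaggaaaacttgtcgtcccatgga
Rgs5: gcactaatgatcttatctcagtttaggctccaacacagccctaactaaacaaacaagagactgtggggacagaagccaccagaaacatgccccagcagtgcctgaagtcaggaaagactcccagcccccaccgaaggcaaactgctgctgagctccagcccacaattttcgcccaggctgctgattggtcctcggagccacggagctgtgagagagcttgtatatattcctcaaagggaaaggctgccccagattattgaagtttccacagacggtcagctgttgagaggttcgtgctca
Vtn: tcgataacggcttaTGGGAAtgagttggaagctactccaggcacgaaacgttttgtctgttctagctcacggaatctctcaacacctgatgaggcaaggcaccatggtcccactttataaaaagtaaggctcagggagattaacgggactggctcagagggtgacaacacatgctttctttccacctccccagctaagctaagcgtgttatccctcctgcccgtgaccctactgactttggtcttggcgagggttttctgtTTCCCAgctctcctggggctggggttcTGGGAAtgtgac

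Pdgfrb, on chromosome 18, was left out of the promoter search, and Ndufa4l2 and Higd1b had no entry. The core was present in 3 of the 7 members searched (1 match in Kcnj8, 1 in Abcc9, 3 in Vtn). It was present in 25.42% of 32544 RefSeq promoters of the same 300 bases, searched on both strands. In Kcnj8 it started at the first transcribed base, in Abcc9 at base -221, and in Vtn at -236, 12 and 39. Rgs5, Anpep, Cspg4 and Atp13a5 had none in this window. The hypoxia element core GCGTG was found in Kcnj8, Anpep, Cspg4 and Vtn, 4 of 7, and in 32.58% of all promoters. ACGTG, its other form, was in 0 of 7 and 19.71% of all promoters. The forkhead motif GTAAACA was in 0 of 7 (3.657% of all), and the CArG box of smooth muscle genes in 0 of 7 (1.641% of all). These matches describe the letters in the window and nothing about binding.

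Other genes of brain pericytes moved with the markers at P9. Of 22 tested, 12 fell and 1 rose in KO, with a median log2 difference of -0.71 beside 0.02 over all genes. Cox4i2, a respiratory chain subunit that marks pericytes, had 2.61, 7.71 and 7.65 CPM in KO and 26.1, 19.9 and 26.5 CPM in wt libraries (log2 -1.96 ± 0.34, adjusted p 0.00011). Gucy1a3 (log2 -1.14 ± 0.24) and Gucy1b3 (-1.04 ± 0.23), the subunits of the nitric oxide receptor guanylate cyclase, and Ecm2 (-0.87 ± 0.19), a matrix protein, fell as well, with adjusted p of 0.00090, 0.0017 and 0.0016. These 4 were called in all 13 other settings. The 1 gene that rose was Lamc3, a laminin chain, with 136, 150.4 and 211 CPM in KO and 86.7, 62.1 and 83.4 CPM in wt libraries (log2 1.10 ± 0.29, adjusted p 0.0055), which lost its call when scaled to the endothelial genes (0.052). Without KO library 1, 5 of the 22 fell and 2 rose. At E15.5, P5 and in adults 0 of 22 were called, and 0 had an unadjusted p under 0.05.

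Genes of the PDGF system gave a mixed picture at P9, with 2 of 7 higher and 1 lower in KO. Pdgfb, the endothelial ligand that recruits pericytes, had 805, 861 and 592 CPM in KO and 643, 658 and 609 CPM in wt libraries (log2 0.24 ± 0.20, adjusted p 0.40), and the groups overlapped. Pdgfa fell (log2 -0.67 ± 0.19, adjusted p 0.0091; 0.052 without KO library 1). Pdgfra, the receptor of oligodendrocyte precursors and fibroblasts, was higher (0.75 ± 0.25, adjusted p 0.027) and Pdgfd too (0.41 ± 0.14, adjusted p 0.034), but 6 and 8 of the 13 other settings ended these calls. Pdgfrb, the receptor of pericytes, is given above.

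Signals that pass between endothelium and mural cells split in both directions at P9, with 5 of 25 genes higher and 9 lower in KO. Over the 13 other settings 3 to 7 were higher and 3 to 13 lower, with 5 higher and 5 lower without KO library 1. Angpt2, an endothelial antagonist of the receptor Tie2 that loosens the contact with pericytes, had 598, 884 and 467 CPM in KO and 97.3, 87.6 and 105 CPM in wt libraries (log2 2.75 ± 0.25, adjusted p 1.6e-08). Every KO library exceeded every wt library. Edn1, the vasoconstrictor endothelin (1.86 ± 0.18), and S1pr1, an endothelial receptor for sphingosine phosphate (1.23 ± 0.15), were higher too, with adjusted p of 5.4e-08 and 1.1e-06. Lower in KO were the chemokine Cxcl12, with 229, 171 and 431 CPM in KO and 775, 803 and 802 CPM in wt libraries (log2 -1.52 ± 0.22, adjusted p 1.2e-05), and Notch3, the Notch receptor of mural cells (-1.08 ± 0.33, adjusted p 0.017). The call of Notch3 was lost without KO library 1 or without wt library 3 (adjusted p up to 0.087). Angpt1, the pericyte ligand that activates Tie2, had 8.32, 4.8 and 4.6 CPM in KO and 5.69, 5.09 and 6.99 CPM in wt libraries (log2 -0.02 ± 0.23). Angpt2 was the 1 gene of the 25 called at E15.5 (log2 1.28 ± 0.26, adjusted p 0.015), and in adults it was Dll4 (-0.75 ± 0.13, adjusted p 0.011).

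Genes of neighbouring cell types moved at P9 as well. In the smooth muscle list 7 of 12 genes tested fell and 1 rose, with a median of -0.88. Acta2, smooth muscle actin, had 2.77, 2.91 and 5.46 CPM in KO and 13.5, 12.9 and 14.6 CPM in wt libraries. Tagln, an actin-binding protein, had 2.27, 2.31 and 3.91 CPM in KO and 4.77, 3.34 and 3.78 CPM in wt libraries. The groups of Tagln overlapped, and it was not called (log2 -0.45 ± 0.24, adjusted p 0.16). Myl9, a myosin light chain, had a log2 difference of -1.52 ± 0.31 (adjusted p 0.00055). The summed level of its 14 genes was 946 to 1059 CPM in KO and 838 to 956 CPM in wt, most of it Smtn, which was higher in KO at 856 CPM, against 582 CPM in wt (log2 0.56 ± 0.14, a call lost on the endothelial scale). Pln, a calcium pump inhibitor on the list, was listed at 0 in KO libraries at P9 and at E15.5 and was not called at P9 (adjusted p 0.085). In the fibroblast list 7 of 9 genes tested fell and 1, Pdgfra, rose. Its 10 genes summed to 239 to 322 CPM in KO and 429 to 543 CPM in wt, and Col1a1, a collagen chain, had 18.7, 14.3 and 12 CPM in KO and 46.3, 42.3 and 33.8 CPM in wt libraries.

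Of 8 astrocyte genes 6 were higher in KO, while Aqp4, a water channel of astrocyte endfeet, had a log2 difference of -0.20 ± 0.21 (adjusted p 0.51). The number higher was 3 on the endothelial scale, where Slc1a3, Gja1 and Gfap lost their calls, and 4 without KO library 1. Their sum was 932 to 1418 CPM in KO and 586 to 689 CPM in wt. The sums of 7 oligodendrocyte genes were 1123 to 1773 CPM in KO and 1044 to 1922 CPM in wt, with 0 of 7 called, and those of 7 oligodendrocyte precursor genes 225 to 452 CPM in KO and 340.2 to 393 CPM in wt, where Cspg4 fell and Pdgfra rose. The 10 microglia and macrophage genes summed to 42.6 to 46 CPM in KO and 55.8 to 64.8 CPM in wt. Of 9 neuronal, 5 neural progenitor and 5 red cell genes 0 were called. Of the 8 genes of other leukocytes, not all of which were tested, 1 fell. Over the 13 other settings up to 6 neuronal genes were higher and up to 5 red cell genes lower. Defining markers of none of these lists but Pln were at 0 in a P9 group. Their part in the P9 difference of the pericyte markers was not tested.

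**Figure D5:**
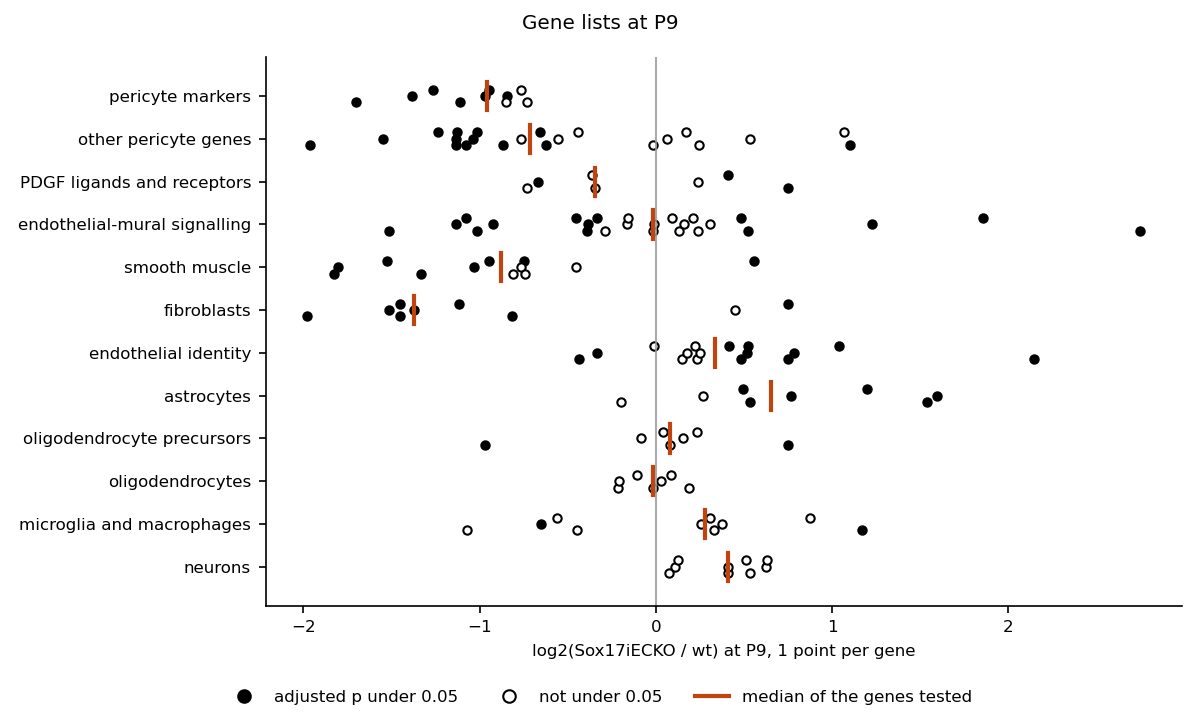
Log2 difference of KO over wt at P9 for each gene tested of 12 lists (1 point per gene, filled where the adjusted p was under 0.05), with the median of each list as a bar. The pericyte markers lie between -1.70 and -0.73, and the fibroblast and smooth muscle lists have medians of -1.37 and -0.88, while the astrocyte median is 0.65.

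The markers differed in how closely they followed a common course over the 24 libraries. Likeness was measured as the root mean square difference between a gene's centred log2(CPM + 0.5) values and the median of the other members. Higd1b (0.19), Anpep (0.21), Cspg4 (0.23) and Pdgfrb (0.29) lay nearest to the rest, and Atp13a5 (1.11) and Abcc9 (0.81) farthest. Between them were Rgs5 (0.42), Ndufa4l2 (0.47), Kcnj8 (0.63) and Vtn (0.69). Outside the list, the 5 genes nearest to the median course of the markers among 12838 with a mean of at least 50 counts were S1pr3 (0.15), Fam101a (0.33), Spon2 (0.33), Tbx18 (0.33) and Art3 (0.33), where the median over all these genes was 1.31. S1pr3, a receptor for sphingosine phosphate, had 29.8, 73 and 66 CPM in KO and 133, 97.5 and 142 CPM in wt libraries at P9 and 15.6 ± 2.13 CPM in KO and 15.3 ± 1.09 CPM in wt adults. Tbx18, a transcription factor of mural cells, had 4.12, 6.68 and 6.04 CPM in KO and 11, 8.49 and 9.56 CPM in wt libraries at P9. It was not called there (log2 -0.76 ± 0.33, adjusted p 0.085).

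The spread between replicates bears on what could pass. Over the 10 markers the median coefficient of variation within a group was 35.8% in KO and 52.0% in wt at E15.5, 21.0% in KO and 14.7% in wt at P5, 43.7% in KO and 15.4% in wt at P9, and 10.2% in KO and 13.7% in wt in adults. At E15.5 the libraries numbered 2 of both genotypes were highest for all 10 markers and those numbered 3 lowest for all 10. Pdgfrb, for example, had 247, 269 and 125 CPM in KO libraries 1, 2 and 3 and 263, 339 and 93.6 CPM in wt libraries 1, 2 and 3. The endothelial sums of these libraries, in the same order, were 7105, 5953 and 5904 CPM in KO and 5571, 6673 and 6241 CPM in wt. The fibroblast sums were also lowest in the libraries numbered 3, at 219 CPM in KO and 241 CPM in wt.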

How the data were processed

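RNA of CD31-selected mouse brain cells was measured by strand-specific poly(A) RNA sequencing in 24 libraries, 3 per genotype and stage. Per the submitters' processing notes, the tools named are SAMtools 1.5, STAR 2.5.3a, FastQC and Trim Galore 0.4.1, and the build is mm10. The annotation release is not given in the sources used here. Per the file headers, the authors deposited, for each library, forward-strand read counts per gene, together with TPM and FPKM values. TPM and FPKM as deposited by the authors were not used for any result. The 10 members were found by gene name, and members and gene lists were chosen with earlier results of these data known.

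The 17159 genes that reached a mean count of 10 in 1 group or more were fitted with edgeR 4.0.16 (R 4.3.3), quasi-likelihood, TMM factors 0.861 to 1.14, 1 mean per group over all 24 libraries (16 residual degrees of freedom), prior count 2, and Benjamini-Hochberg adjustment over all genes tested at 0.05. Levels are CPM on TMM library sizes. Of 3 counts the floor is 0.151 to 0.244 CPM per library, for counting error only. Alternatives were DESeq2 1.42.0 (size factors and test), robust limma-trend 3.58.1, scaling to the 16 endothelial identity genes, no filter, the compared libraries alone, a replicate block and leaving out each library. Ratios to Pdgfrb and the fit without both E15.5 libraries numbered 3 were added after seeing the data. Besides the members, Sox17, Pdgfb, Notch3, Cox4i2 and Angpt1 were named always, then up to 4 called genes per contrast with the smallest adjusted p of the 4 lists on pericytes, PDGF, signalling and paralogues, the 5 genes most like the members, the 2 highest genes of each other cell type list, and Acta2, Tagln, Col1a1, Pdgfra, Olig1, Pecam1 and Cdh5. Kcnj11, Pln and some of the astrocyte genes Aqp4, Slc1a3, Gja1 and Gfap fall outside this rule and were chosen after their values were seen. Scripts were tested on simulated data. No library matched another of its group within sampling noise. Replicates are biological per the labels' protocols.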

Additional observations from a re-analysis of the deposited data

Results flagged for a closer look

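The KO effect on Rgs5 differed between the 4 stages, with an adjusted p of 0.018737 in the edgeR quasi-likelihood F test of the interaction. It was the 1 member of 10 called, where 13.5% of genes tested were called. The call was lost without P9 wt library 1 or without P9 KO library 1. The log2 differences of KO over wt were -0.11 ± 0.30 at E15.5, -0.04 ± 0.30 at P5, -1.70 ± 0.31 at P9 and -0.15 ± 0.31 in adults (SE, n = 3 libraries per genotype and stage). All 3 KO libraries lay below all 3 wt libraries at P9 and in adults, and the genotypes overlapped at E15.5 and P5.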

How the results depend on the processing

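The number of called members moved with the processing. At P9 the DESeq2 test called 4 of the 10 where the edgeR test called 7, and leaving out single libraries gave 3 to 7. At P5 1 was called with no filter on low counts and 1 with the compared libraries alone, and for wt P9 over P5 6 and 6. For wt P5 over E15.5 scaling to the endothelial identity genes gave 3, counted in either direction, where the TMM scale gave 9. On the endothelial scale 7 values that were called before or after the scaling turned sign: -0.44 for Pdgfrb, -0.86 for Kcnj8, -0.61 for Abcc9, -1.06 for Ndufa4l2 and -0.18 for Higd1b between P5 and E15.5, and -1.18 for Vtn and -0.10 for Atp13a5 between adults and E15.5. Averaged over stages, 4 were called on the endothelial scale, 9 with no filter, 0 in limma, 4 without both E15.5 libraries numbered 3, and 0 to 4 leaving out single libraries. The test of a difference between stages gave 4 on the endothelial scale, 10 with no filter, 2 without both E15.5 libraries numbered 3 and 0 to 2 leaving out single libraries. For P9 minus E15.5 these were 4, 10 and 1 to 4, with 0 in the compared libraries alone, where Rgs5 had an adjusted p of 0.068. For P9 minus P5 they were 5, 9 and 1 to 3, and for P9 minus adult 6, 8 and 0 to 3, the 0 being without P9 wt library 1. The cause was not tested. Of 590 values of single members under settings other than left-out libraries, 543 stayed on their side of the threshold, and 15 lost and 25 gained a call. The other 7 were called in the main fit or under the other setting and turned sign. Of 1260 values not called either way, 43 took the other sign.

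Replicate numbers were not treated as pairs, since no stage had all 3 same-numbered pairs correlated above 0.1. Deviations of same-numbered KO and wt libraries correlated over genes with r = 0.065, 0.368 and 0.486 at E15.5, where libraries 2 and 3 matched best with their own number, and with -0.081 to 0.091 at the other stages. The fit with a replicate block called 10 members at P9, 5 averaged over stages, 3 for a difference between stages, 6 for P9 minus E15.5, 6 for P9 minus P5 and 7 for P9 minus adult.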

Other observations

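Relatives of the members, a list of 13 paralogues, moved in both directions at P9, with 3 higher and 4 lower in KO. Rgs2, another brake on G protein signalling, had 11.3, 11.4 and 11.2 CPM in KO and 35, 28.6 and 23.3 CPM in wt libraries (log2 -1.35 ± 0.17, adjusted p 1.4e-06). Enpep, a membrane aminopeptidase related to Anpep that pericytes also carry, differed by -1.23 ± 0.35 (adjusted p 0.0096), Atp13a3 by -0.62 ± 0.13 and Ndufa4 by -0.40 ± 0.12. Higher in KO were Atp13a4 (1.73 ± 0.24, adjusted p 9.4e-06), Kcnj11 (1.26 ± 0.41) and Pdgfra, the last 2 losing their calls in several settings.

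At E15.5 the 5 red cell genes tested all fell in KO, with a median log2 difference of -2.21. Their sum was 524 to 819.7 CPM in KO and 2566 to 3453 CPM in wt libraries, at a stage where 0 of the 10 pericyte markers were called.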
